A study of Mus musculus with 20 samples.

Results

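The 10 genes described here make, break down, take up or sense prostaglandins, and they were listed by these roles. They are Ptgs1, Ptgs2, Ptges, Ptges2, Ptgis, Hpgd, Slco2a1, Ptger2, Ptger3 and Ptger4, out of 32991 genes in the summed table. RNA was sequenced from the colon of 20 mice in 4 groups of 5, with 1 library per mouse. Control mice received double distilled water by gavage for 91 days, and PZH mice received 250 mg/kg/d of the Chinese herbal and animal formula Pien Tze Huang (PZH) over the same time. AOM/DSS mice (labelled Model) received water by gavage, and PZH + AOM/DSS mice (labelled Model + PZH) received PZH. Mice of these last groups also had an intraperitoneal injection of the carcinogen azoxymethane (AOM, 12.5 mg/kg). They then drank 2% dextran sulfate sodium (DSS), an agent that injures the colon lining, for 5 days followed by 2 weeks of plain water, over 4 cycles. The mice were male C57BL/6, and their age is not given in the sources used here. The design asks how colitis-associated tumour induction changed these genes and whether PZH altered that change.

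Prostaglandins are lipid signals made from arachidonic acid. Phospholipases free the acid from membranes, the cyclooxygenases encoded by Ptgs1 and Ptgs2 turn it into prostaglandin H2, and terminal synthases then make prostaglandin E2 or prostacyclin. In the intestine, prostaglandin E2 acts on epithelial and stromal cells through G protein-coupled receptors and takes part in mucosal repair, inflammation and tumour growth. Uptake by the transporter encoded by Slco2a1 and oxidation by the dehydrogenase encoded by Hpgd end the signal.

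Levels are FPKM (fragments scaled by transcript length and by the mapped fragments of the library) summed over the Ensembl transcripts of a gene, so that levels of different genes are compared per length. Mice are named by the number in their label. Differences are log2 fold changes of FPKM + 1 from limma with standard errors (SE), and a change was called at a Benjamini-Hochberg adjusted P under 0.05 over all genes tested. The separate mice were the replicates. In bulk tissue, fewer cells of a type and less RNA per cell cannot be told apart.

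The libraries held an estimated 15332400 to 19442900 fragments (median 16880700), as read from the steps of the low values. This estimate takes the step found as 1 fragment, which the values do not settle. The extraction text of the labels names the abdominal aorta whereas the tissue label says colon, so colon markers were examined. Vil1, Lgals4 and Cdx1 were at 157, 563 and 110 FPKM or more in every mouse, whereas Epcam was listed at 0 in 13 of 20 mice and Krt8 ranged from 0.0706 to 3071 FPKM, so that a value near 0 is not always an absence of the transcript. None of the 10 prostaglandin genes was listed at 0 in any mouse. Control mice 17 and 50 stood apart by squamous keratin markers. These summed to 299 and 249 FPKM against 0.824 to 1.64 in the other 3 Control mice, and results are also given without both. The same sum was 0.325 to 1.05 FPKM in PZH mice and 11.4 to 34.7 in AOM/DSS mice. In PZH + AOM/DSS mice it was 2.49 to 57.9 FPKM, highest in mouse 35.

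Ptgs2 and Hpgd, the genes with opposite changes described below, had annotated promoters, which are shown because they bring the starts of the inducible synthesis gene and of the main breakdown gene side by side. The windows run from 250 bases before to 50 bases after the RefSeq start (GRCm38.p6), and capitals mark matches to the motifs searched on both strands, where any were found. The letters TATAAA stand for a core promoter box. An E-box is CACGTG here. The cyclic AMP response element is TGACGTCA, and an NF-kappaB site is GGGACTTTC. The Ptgs2 window lies at chr1:150099781-150100080 and the Hpgd window at chr8:56294302-56294601, both on the + strand.
Ptgs2: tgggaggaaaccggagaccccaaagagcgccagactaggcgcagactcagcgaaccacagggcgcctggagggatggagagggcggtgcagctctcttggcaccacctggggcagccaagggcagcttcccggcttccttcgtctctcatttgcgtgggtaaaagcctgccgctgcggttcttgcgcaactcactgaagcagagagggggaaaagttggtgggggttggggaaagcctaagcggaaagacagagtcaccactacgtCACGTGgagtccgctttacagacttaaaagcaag
Hpgd: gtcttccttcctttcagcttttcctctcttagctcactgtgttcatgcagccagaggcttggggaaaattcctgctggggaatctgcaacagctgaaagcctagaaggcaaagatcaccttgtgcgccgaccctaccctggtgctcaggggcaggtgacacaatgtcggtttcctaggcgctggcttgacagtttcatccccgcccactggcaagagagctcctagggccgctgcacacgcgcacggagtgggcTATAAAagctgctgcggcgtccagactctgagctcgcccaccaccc
The Ptgs2 window held 1 E-box, starting 16 bases after the RefSeq start, and the Hpgd window held 1 TATAAA, starting 4 bases after its RefSeq start. In the annotation used for the sums, Hpgd starts at 56294585, further along this window than the TATAAA. The place of the TATAAA before or after the start thus depends on the annotation. Neither window held another exact match to these motifs. Only whole motifs were searched, so partial or variant sites were not looked for. Of 32851 promoters of this length, 13.6% held TATAAA, 7.15% CACGTG, 1.79% TGACGTCA and 0.353% GGGACTTTC. Promoters of 9 of the 10 genes were found in the table. Among the other 7, the Ptges2 window also held CACGTG and the Slco2a1 window TATAAA. These matches describe letters in a window and not bound sites.

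In Control colon, Hpgd stood far above the other genes at 90.7 ± 15.8 FPKM (SD, n = 5). Next came Ptgs1 at 10.3 ± 1.19, Ptges2 at 8.04 ± 0.675, Ptger4 at 7.57 ± 0.516, Ptgis at 5.20 ± 1.56 and Ptger3 at 4.91 ± 3.60 FPKM. Slco2a1 at 4.05 ± 6.61, Ptges at 2.91 ± 1.80, Ptgs2 at 1.75 ± 0.496 and Ptger2 at 0.537 ± 0.172 FPKM followed. In this order, the values of neighbouring genes overlapped between mice except at the step from Hpgd to Ptgs1 and the step from Ptgs2 to Ptger2. Ptgs2 moved from rank 9 of 10 in Control mice to rank 4 in AOM/DSS mice, while Hpgd kept rank 1 in all 4 groups.

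**Figure D1:**
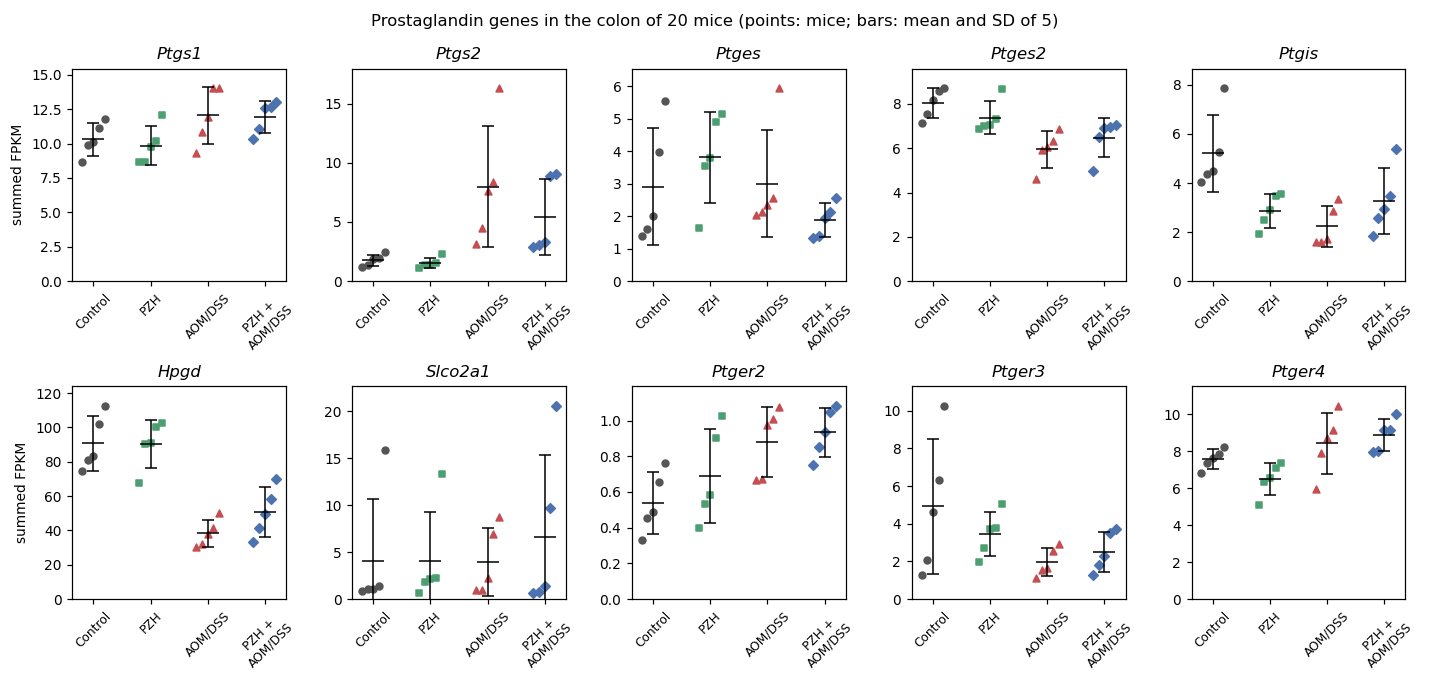
Summed FPKM (vertical axes, from 0) of the 10 prostaglandin genes in each of 20 mice; points are mice, and bars give the mean and SD of 5 mice, with lower arms that pass 0 cut there. Ptgs2 is higher and Hpgd lower in every AOM/DSS mouse than in any Control mouse, and Slco2a1 is at 6.87 FPKM or more in 6 mice that belong to all 4 groups.

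Compared with Control mice, AOM/DSS mice had higher Ptgs2 and lower Hpgd, Ptgis and Ptges2. These were 4 of the 10 genes, all of which passed the filter on low values, at an adjusted P under 0.05, while 23.6% of all 15812 genes tested were called (3739 genes). At an unadjusted P under 0.05 there were 5 of the 10 genes, against 36% of all genes. The median log2 fold change of the 10 genes was 0.10 and that of all genes tested 0.09. With so many genes called in the whole table, nothing is read from the count, and the account rests on the single genes.

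Ptgs2 (ENSMUSG00000032487.8, chr1:150100031-150108227, + strand of GRCm38) encodes cyclooxygenase-2, the inducible enzyme of prostaglandin H2 formation. Its level in Control mice 17, 37, 41, 48 and 50 was 2.42, 1.33, 1.85, 1.94 and 1.19 FPKM. AOM/DSS mice 23, 30, 33, 44 and 52 had 16.3, 3.13, 4.48, 7.58 and 8.41 FPKM. Every AOM/DSS mouse was thus above every Control mouse, but the AOM/DSS mice spread widely around 7.99 ± 5.14 FPKM (SD, n = 5). This gave a log2 fold change of 1.55 (SE 0.34, 95% interval 0.81 to 2.29, adjusted P = 0.00772), which is 2.93-fold on the FPKM + 1 scale. Without AOM/DSS mouse 23, the highest, it was 1.27, the smallest of the 10 fits that left out 1 mouse (adjusted P 0.00336 to 0.0234), and without Control mice 17 and 50 it was 1.56 (adjusted P = 0.0337). The 5 summed neutrophil markers (S100a8, S100a9, Csf3r, Cxcr2 and Retnlg) reached 97.7 to 538 FPKM in AOM/DSS mice and 0.188 to 30.3 in Control mice. All 4 of those tested were higher. The highest Control sums, 30.3 and 26.4 FPKM, were those of mice 17 and 50, while mice 37, 41 and 48 had 0.983, 0.188 and 0.484 FPKM. Macrophage markers (Cd68, Csf1r, Adgre1, Cd14 and Itgam) summed to 107.5 to 144.8 FPKM in AOM/DSS and 57.1 to 78.5 in Control mice, with 4 of 5 higher. Mast cell markers (Cpa3, Mcpt1, Mcpt2, Tpsb2, Cma1 and Ms4a2) summed to 46.7 to 267 FPKM and 5.26 to 8.34 FPKM, with all 5 of those tested higher. The part of these cells in the Ptgs2 result was not tested.

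Ptgs1 (ENSMUSG00000047250.13, chr2:36230426-36252272, + strand) encodes the constitutive cyclooxygenase-1. Control mice ranged from 8.69 to 11.7 FPKM and AOM/DSS mice from 9.34 to 14.04 FPKM, so the groups overlapped. Their log2 fold change was 0.20 (95% interval -0.10 to 0.49, adjusted P = 0.327). Expressed as a share of the FPKM of both cyclooxygenase genes, Ptgs2 took 14.5% ± 3.78 in Control mice and 37.7% ± 17.8 in AOM/DSS mice (SD, n = 5). In AOM/DSS mouse 23 the share was 63.6%, so this mouse had more Ptgs2 than Ptgs1 per length.

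Hpgd (ENSMUSG00000031613.9, chr8:56294585-56321043, + strand) encodes 15-hydroxyprostaglandin dehydrogenase, which inactivates prostaglandin E2. Control mice, in the same order as above, had 80.8, 102, 74.8, 83.5 and 113 FPKM. AOM/DSS mice had 38.0, 41.1, 50.2, 30.1 and 32.1 FPKM. All AOM/DSS mice lay below all Control mice. The log2 fold change was -1.23 (SE 0.16, 95% interval -1.58 to -0.88, adjusted P = 4.2e-04), the smallest P of the 10 genes in this comparison. Leaving out each mouse in turn gave -1.33 to -1.15, and without Control mice 17 and 50 it was -1.17 (adjusted P = 0.00371). Hpgd has 1 annotated transcript, so its sum does not depend on how fragments were divided among annotated transcripts.

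Markers of surface colonocytes, the absorptive cells at the top of the crypts, moved in the same direction as Hpgd. Their sum (Car1, Car4, Slc26a3, Aqp8, Guca2a and Krt20) was 3479 to 4641 FPKM in Control mice and 576 to 1734 FPKM in AOM/DSS mice, and 5 of the 6 were lower at an adjusted P under 0.05. Slc26a3, the chloride exchanger of these cells, had a log2 fold change of -2.39 (SE 0.28, adjusted P = 2.3e-04). The part of these cells in the Hpgd result was not tested.

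**Figure D2:**
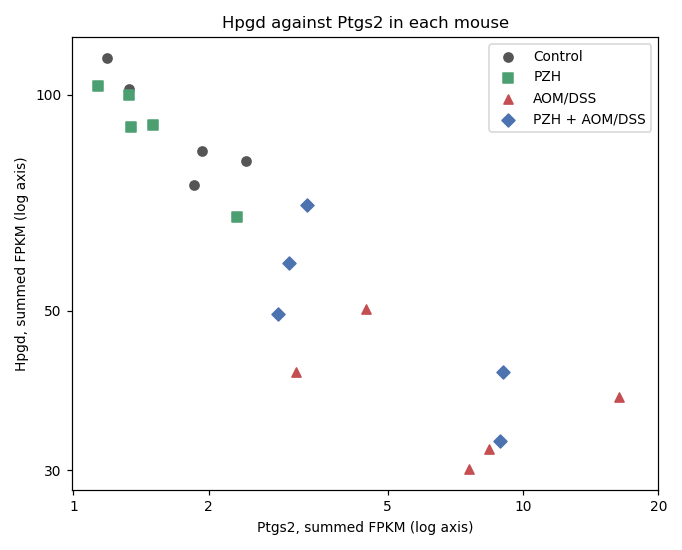
Summed FPKM of Ptgs2 (horizontal, log axis) and Hpgd (vertical, log axis) in each of 20 mice, with 1 symbol per group of 5. The 10 mice without AOM/DSS lie at 2.42 FPKM or less of Ptgs2 and 67.5 or more of Hpgd, and AOM/DSS mice at 3.13 or more and 50.2 or less.

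With opposite changes of Ptgs2 and Hpgd, their ratio differed between the groups as well. Hpgd was 57.6 ± 26.6 times the FPKM of Ptgs2 in Control mice (33.4 to 94.96) and 6.89 ± 4.91 times in AOM/DSS mice (2.33 to 13.1, SD, n = 5). The ratio was formed from genes already described, so it is given as a description with no test of its own.

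Ptgis (ENSMUSG00000017969.13, chr2:167191805-167240604, - strand) encodes prostacyclin synthase, an enzyme known from vascular and smooth muscle cells. Control mice had 4.47, 5.26, 4.36, 4.06 and 7.88 FPKM, and AOM/DSS mice had 1.61, 2.88, 3.37, 1.59 and 1.71 FPKM. The groups did not overlap, and Control mouse 50 stood highest. The log2 fold change was -0.95 (SE 0.21, 95% interval -1.41 to -0.48, adjusted P = 0.00869), and without Control mice 17 and 50 it was -0.81 (adjusted P = 0.0347). All 5 smooth muscle markers (Myh11, Acta2, Actg2, Des and Cnn1) were lower too, with a sum of 1646 to 3639 FPKM in Control mice and 720 to 1275 FPKM in AOM/DSS mice. The highest sum was that of Control mouse 50. Endothelial markers (Pecam1, Cdh5, Kdr, Tek and Vwf) did not fall with Ptgis. Of these 5, 2 were higher at an adjusted P under 0.05 and 0 lower. The 2 were Cdh5 (log2 fold change 0.71, adjusted P = 0.00857) and Vwf (0.53, adjusted P = 0.0316) by limma. The part of smooth muscle or endothelial cells in the Ptgis result was not tested.

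Ptges2 (ENSMUSG00000026820.5, chr2:32395896-32405772, + strand) encodes the membrane-associated prostaglandin E synthase 2. Its values in Control mice were 7.14, 8.58, 8.19, 8.72 and 7.56 FPKM. In AOM/DSS mice they were 6.32, 4.63, 5.91, 6.07 and 6.88 FPKM, all below the lowest Control value. The difference was small, with a log2 fold change of -0.38 (SE 0.12, 95% interval -0.65 to -0.12, adjusted P = 0.0415). The call was lost in 8 of the 10 fits that left out 1 mouse (adjusted P 0.0451 to 0.0912), the exceptions being those without Control mouse 17 or AOM/DSS mouse 52, and without Control mice 17 and 50 together (adjusted P = 0.056).

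Ptges (ENSMUSG00000050737.13, chr2:30889471-30929863, - strand) encodes the microsomal prostaglandin E synthase 1, which often works with cyclooxygenase-2. Control mice had 1.62, 3.98, 5.55, 2.00 and 1.39 FPKM and AOM/DSS mice 5.95, 2.04, 2.11, 2.34 and 2.57 FPKM. Mice of the same group differed more than the group means (2.906 ± 1.80 and 3.003 ± 1.66 FPKM). limma gave a log2 fold change of 0.07 (95% interval -0.64 to 0.79, adjusted P = 0.898), and its sign changed under other settings.

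Slco2a1 (ENSMUSG00000032548.14, chr9:102988712-103096002, + strand) encodes the prostaglandin transporter. Control mice had 0.840, 1.097, 1.07, 15.9 and 1.35 FPKM, and AOM/DSS mice had 0.942, 2.27, 0.981, 6.87 and 8.69 FPKM. A few mice stood far above the others within each group, and the 95% interval of the log2 fold change ran from -1.18 to 1.81 (estimate 0.32, adjusted P = 0.780). These data therefore bound the change of Slco2a1 only loosely.

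The receptors of prostaglandin E2 did not reach an adjusted P under 0.05. Ptger4 (ENSMUSG00000039942.15, chr15:5206661-5244187, - strand), which encodes the EP4 receptor coupled to cyclic AMP, was at 7.57 ± 0.516 FPKM in Control mice and 8.41 ± 1.67 in AOM/DSS mice, with a log2 fold change of 0.12 (95% interval -0.19 to 0.43, adjusted P = 0.592). This Ptger4 sum joins 2 main coding transcripts whose means moved in opposite directions. ENSMUST00000120563 was at 3.42 FPKM in Control and 5.04 in AOM/DSS mice, and ENSMUST00000047379 at 4.10 and 3.34. Over the alternative settings the log2 fold change of Ptger4 ran from 0.016 to 0.45 (limma, adjusted P 0.0805 to 0.951). Ptger2 (ENSMUSG00000037759.6, chr14:44988195-45003820, + strand) encodes EP2, which raises cyclic AMP as well. It was the scarcest of the 10 genes, at 0.329 to 0.764 FPKM in Control mice and 0.668 to 1.08 in AOM/DSS mice, and 18 to 69.3 estimated fragments per mouse lay behind these values. Its log2 fold change of 0.29 had an unadjusted P of 0.0263 and an adjusted P of 0.0885. At such low levels the size depends on the pseudocount, and with 0.1 in place of 1 the log2 fold change was 0.64, still not called.

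Ptger3 (ENSMUSG00000040016.16, chr3:157566892-157645888, + strand) encodes EP3, the receptor that lowers cyclic AMP. Control mice had 6.32, 2.09, 4.604, 1.29 and 10.3 FPKM and AOM/DSS mice 1.55, 2.57, 2.93, 1.12 and 1.63 FPKM. Control mice spread widely, with mouse 50 again highest, and the lowest value was that of AOM/DSS mouse 44. Ptger3 had a log2 fold change of -0.81 (95% interval -1.68 to 0.07, adjusted P = 0.170) and became -0.24 without Control mice 17 and 50. Of the summed FPKM of Ptger3 over 20 mice, 43.3% came from a transcript with a retained intron. Of the summed FPKM of the 3 receptor genes, Ptger4 took 61.6% ± 16.7 in Control mice and 74.8% ± 6.26 in AOM/DSS mice (SD, n = 5). The lowest Control shares were those of mice 17 and 50, at 53.4% and 38.2%. Control mice 37, 41 and 48 had 74.3%, 61.7% and 80.1%, beside 69.0% to 82.9% in AOM/DSS mice, so no difference is read from this share.

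**Figure D3:**
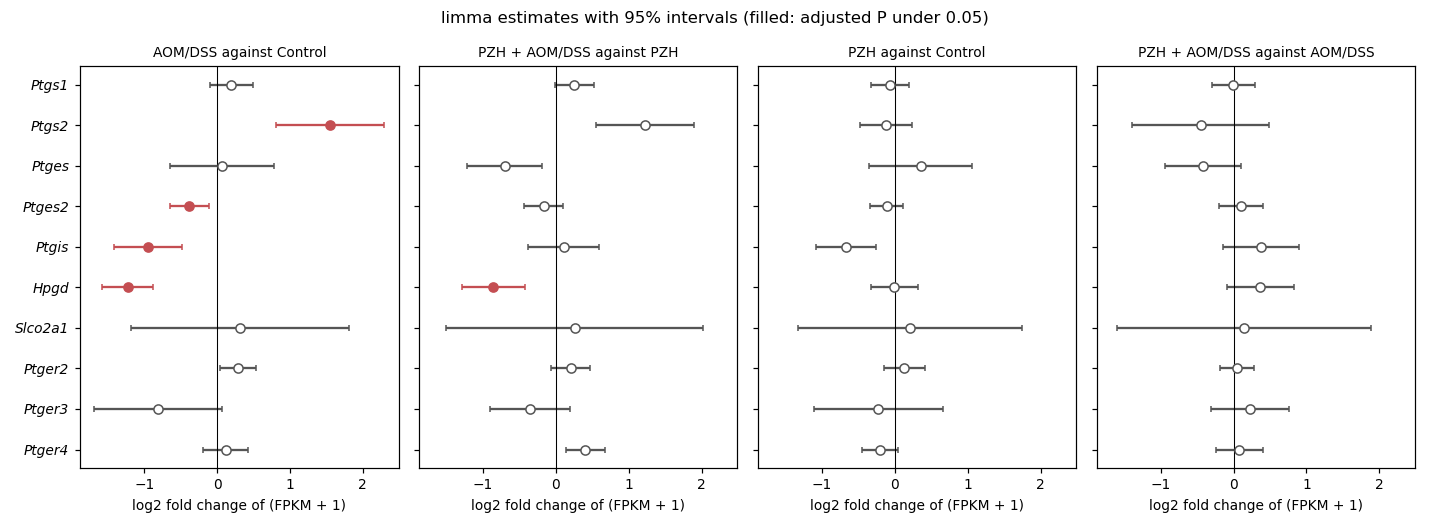
log2 fold changes of FPKM + 1 (horizontal axes) for the 10 genes in 4 comparisons of 5 against 5 mice; circles are limma estimates, lines are 95% intervals and filled circles have an adjusted P under 0.05. Ptgs2, Ptges2, Ptgis and Hpgd are filled for AOM/DSS against Control, Hpgd alone for PZH + AOM/DSS against PZH, and none for the comparisons of PZH within water-treated or AOM/DSS-treated mice.

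The same question was asked among mice that received PZH, with PZH + AOM/DSS against PZH, a comparison that shares no mouse with the one above. Here Hpgd was the 1 gene of the 10 called, against 2.42% of 15636 genes (378 genes), and 4 of the 10 had an unadjusted P under 0.05, against 20.9% of all genes. PZH mice 8, 14, 27, 46 and 53 had 103, 90.3, 67.5, 100.01 and 90.8 FPKM of Hpgd. PZH + AOM/DSS mice 2, 13, 15, 35 and 36 had 49.5, 58.4, 41.1, 32.9 and 70.2 FPKM. The groups overlapped slightly, because mouse 36 exceeded PZH mouse 27. Hpgd had a log2 fold change of -0.86 (SE 0.20, 95% interval -1.29 to -0.43, adjusted P = 0.0492). The call was lost in 9 of 10 fits that left out 1 mouse (adjusted P 0.0327 to 0.119), the exception being the fit without PZH + AOM/DSS mouse 36.

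Ptgs2 in the same mice was 1.14, 1.34, 2.31, 1.33 and 1.501 FPKM with PZH and 2.85, 3.02, 9.04, 8.90 and 3.31 FPKM with PZH + AOM/DSS. Every mouse of the latter group was above every PZH mouse. The log2 fold change of 1.22 (SE 0.31, 95% interval 0.55 to 1.90) had an adjusted P of 0.0634, and of 0.0357 when all 20 mice shared 1 estimate of spread. Ptges gave -0.70 (SE 0.23, unadjusted P = 0.012, adjusted P = 0.125) and Ptger4 0.40 (SE 0.12, unadjusted P = 0.00726, adjusted P = 0.104), the latter with 7.94 to 9.98 FPKM in PZH + AOM/DSS mice and 5.10 to 7.35 in PZH mice. Ptgis gave 0.10 (95% interval -0.38 to 0.59, adjusted P = 0.822), beside its -0.95 in the comparison without PZH.

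Against Control mice, PZH + AOM/DSS mice also had lower Hpgd. This was again 1 of the 10 genes called, with 2.42% of 15616 genes called (378 genes), and 4 of the 10 had an unadjusted P under 0.05, against 20.9% of all. The log2 fold change of Hpgd was -0.86 (SE 0.20, adjusted P = 0.0498), and every PZH + AOM/DSS mouse lay below every Control mouse. The call was lost in 8 of 10 fits that left out 1 mouse (adjusted P 0.0374 to 0.126, the exceptions being those without PZH + AOM/DSS mouse 13 or 36) and without Control mice 17 and 50 (adjusted P = 0.182). Ptgs2 had a log2 fold change of 1.101 (SE 0.31, adjusted P = 0.0836), with no overlap between the groups. This comparison shares its Control mice with that of AOM/DSS and Control.

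PZH alone was compared with Control to see whether the formula changed these genes in mice without tumour induction. None of the 10 genes had an adjusted P under 0.05 by limma, and neither did nearly any other (1 of 15506 genes, 0.00645%). At an unadjusted P under 0.05 there was 1 of the 10, against 8.84% of all genes. This was Ptgis, at 3.47, 3.54, 2.49, 1.91 and 2.89 FPKM in PZH mice. All PZH mice were below all Control mice, with a log2 fold change of -0.67 (SE 0.19, 95% interval -1.08 to -0.26, unadjusted P = 0.00422, adjusted P = 0.437). The summed smooth muscle markers were 736 to 1778 FPKM in PZH mice against 1646 to 3639 in Control mice, and their part in the Ptgis value was not tested. For Hpgd the log2 fold change was -0.0047 (95% interval -0.32 to 0.32) and for Ptgs2 -0.12 (95% interval -0.48 to 0.24), so changes within these intervals could not be seen with 5 mice a group.

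PZH + AOM/DSS against AOM/DSS asked whether the formula altered these genes under tumour induction. By limma, 0 of the 10 genes had an adjusted P under 0.05 and 0 an unadjusted P under 0.05. Over all genes, 0.00629% of 15888 were called (1 gene), and 11.7% had an unadjusted P under 0.05. The median log2 fold change of the 10 genes was 0.09 and that of all genes -0.04.

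For Ptgs2, the PZH + AOM/DSS mice had a mean of 5.42 ± 3.24 FPKM and the AOM/DSS mice 7.99 ± 5.14 (SD, n = 5). Mice 15 and 35 of the former group lay within the AOM/DSS range at 9.04 and 8.90 FPKM, whereas mice 2, 13 and 36 lay at 2.85 to 3.31 FPKM, around the lowest AOM/DSS mouse. The log2 fold change of -0.45 had a 95% interval from -1.39 to 0.49 (unadjusted P = 0.311, adjusted P = 0.697), and fits that left out 1 mouse gave -0.69 (without AOM/DSS mouse 30) to -0.17 (without AOM/DSS mouse 23). For Hpgd, 50.4 ± 14.5 FPKM (32.9 to 70.2) compared with a mean of 38.3 FPKM (30.1 to 50.2). Its log2 fold change of 0.36 had a 95% interval from -0.10 to 0.82 (unadjusted P = 0.1096, adjusted P = 0.519).

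Fits that left out 1 mouse gave Hpgd differences from 0.23 without PZH + AOM/DSS mouse 36 to 0.50 without mouse 35, with adjusted P from 0.156 to 0.747. Mouse 35 had the lowest Hpgd of its group, at 32.9 FPKM. Its summed surface colonocyte markers were at 888 FPKM against 2083 to 2911 in the other 4 mice. Its summed neutrophil markers were at 267 FPKM against 5.07 to 88.6, and its summed squamous keratin markers at 57.9 FPKM against 2.49 to 9.07. The part of tissue makeup in the values of this mouse was not tested. The ratio of Hpgd to Ptgs2 was 13.2 ± 8.43 in PZH + AOM/DSS mice (3.70 to 21.2) beside 6.89 ± 4.91 in AOM/DSS mice and 64.6 ± 22.7 in PZH mice (SD, n = 5).

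**Figure D4:**
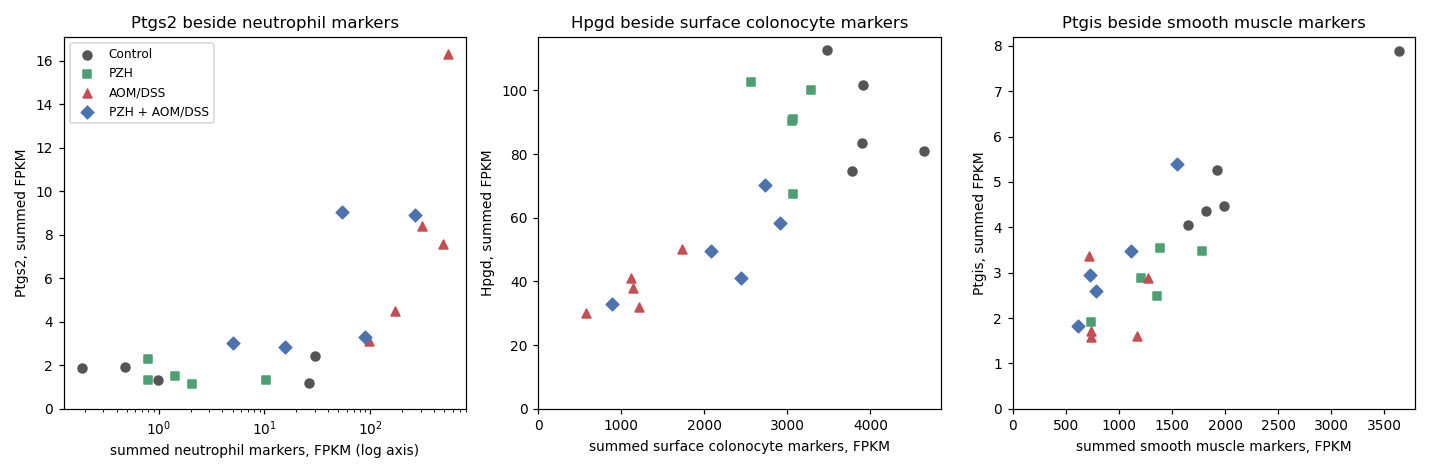
Ptgs2, Hpgd and Ptgis (vertical axes, summed FPKM) beside the summed FPKM of neutrophil (log axis), surface colonocyte and smooth muscle markers (horizontal axes) in each of 20 mice. Mice with surface colonocyte sums of 1734 FPKM or less hold 50.2 FPKM or less of Hpgd. PZH + AOM/DSS mice 2 and 15 also hold as little, 49.5 and 41.1 FPKM, at higher sums of 2083 and 2437 FPKM. Control mouse 50 has both the highest smooth muscle sum, 3639 FPKM, and the highest Ptgis, 7.88 FPKM.

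The remaining synthesis genes differed little or loosely between the AOM/DSS groups. Ptgis was at 2.23 ± 0.832 FPKM without and 3.25 ± 1.35 FPKM with the formula, with overlap and a log2 fold change of 0.38 (95% interval -0.15 to 0.90, adjusted P = 0.549). Ptges had a log2 fold change of -0.42 (95% interval -0.94 to 0.10, adjusted P = 0.509), Ptges2 of 0.10 (95% interval -0.19 to 0.40) and Ptgs1 of -0.0044 (95% interval -0.30 to 0.29). Among the receptors, Ptger2, Ptger3 and Ptger4 had log2 fold changes of 0.04, 0.23 and 0.08, with adjusted P from 0.733 to 0.900. Slco2a1 again had the widest interval, from -1.59 to 1.89.

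The interaction of PZH and AOM/DSS, fitted over all 20 mice, tests whether the AOM/DSS difference was the same with and without PZH. None of the 10 genes was called by limma at an adjusted P under 0.05, where 0.0118% of 16936 genes were called (2 genes). At an unadjusted P under 0.05 there was 1 of the 10 and 10.3% of all genes. The 1 gene was Ptgis, whose AOM/DSS difference was higher by 1.05 on the log2 scale with PZH than without (SE 0.31, unadjusted P = 0.00304, adjusted P = 0.351). Of 20 fits that left out 1 mouse, 1 called it, the one without PZH + AOM/DSS mouse 35, and the adjusted P ran from 0.0381 to 0.588. For Ptgs2 the interaction was -0.33 (95% interval -1.33 to 0.66) and for Hpgd 0.37 (95% interval -0.18 to 0.92), so a difference in the AOM/DSS response of these genes between mice with and without PZH was not shown.

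Of 33 further genes of arachidonate release, prostanoid synthesis, breakdown, receptors and the leukotriene branch, 28 were tested between AOM/DSS and Control mice, and 7 were higher and 3 lower, beside the 23.6% of all genes. RNA of Pla2g2a, a gene for a secreted phospholipase A2, rose from 6.19 ± 4.03 to 152 ± 31.7 FPKM (SD, n = 5). The log2 fold change was 4.61 (SE 0.40, adjusted P = 3.0e-05), and working enzyme was not measured. Pla2g12a, another secreted phospholipase, had a log2 fold change of 1.56 (SE 0.19, adjusted P = 2.6e-04). In contrast, Pla2g4a, the cytosolic phospholipase A2 that releases arachidonate inside cells, was at 20.8 ± 3.16 FPKM in AOM/DSS and 23.01 ± 4.16 FPKM in Control mice (log2 fold change -0.13, adjusted P = 0.570). Of the lipoxygenases, which lead arachidonate to other products, Alox12 (log2 fold change 3.47, SE 0.31, adjusted P = 3.9e-05) and Alox15 (1.69, SE 0.50, adjusted P = 0.0322) were higher, with Alox15 listed at 0 in 2 Control mice. Ltb4r1 (leukotriene B4 receptor), Abcc4 (prostanoid export) and Ptgr1 (further breakdown) were the other 3 that were higher. The 3 that were lower belong to other prostanoid synthesis, and they were Cbr1 (log2 fold change -1.16, SE 0.13, adjusted P = 1.7e-04), Fam213b (-0.95, SE 0.22, adjusted P = 0.00969) and Akr1b3 (-0.48, SE 0.14, adjusted P = 0.0310).

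In PZH + AOM/DSS against PZH mice, 29 of these 33 genes were tested, and Alox15 (log2 fold change 2.46) and Pla2g2a (2.302) were higher and Ptgr2 (-0.49), an enzyme of prostaglandin breakdown, was lower, beside the 2.42% of all genes called. Against Control mice, 2 of 29 were called, beside 2.42% of all genes, with higher Alox15 (2.04) and Pla2g2a (3.39). By limma, 0 of 27 were called for PZH against Control, where 4 had an unadjusted P under 0.05, beside 8.84% of all genes. For PZH + AOM/DSS against AOM/DSS, 0 of 29 were called and 4 had an unadjusted P under 0.05, beside 11.7% of all genes. There, Pla2g2a was at 76.5 ± 55.9 FPKM beside 152 ± 31.7 (log2 fold change -1.23, unadjusted P = 0.0123, adjusted P = 0.356), and Alox12 at 7.45 ± 11.7 beside 20.4 ± 9.37 FPKM (-2.07, unadjusted P = 0.00895, adjusted P = 0.356). The interaction called 0 of 29, with 4 at an unadjusted P under 0.05, beside 10.3% of all genes.

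Over the 20 mice and 14139 other genes with a mean of at least 1 FPKM, the log2 values most like those of Ptgs2 were those of Gmps (Pearson r = 0.953), Rsl1d1 (0.951) and Ctps (0.947). Gmps and Ctps encode enzymes of nucleotide synthesis. After the group means were taken out, the same values were 0.874, 0.867 and 0.850. For Hpgd the most similar genes were Maob (0.955), Galm (0.943) and Abat (0.940), and 0.802, 0.727 and 0.754 without group means. Maob, Galm and Abat encode a monoamine oxidase, a galactose mutarotase and an aminotransferase. These correlations are descriptions over mice that share groups and tissue makeup.

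Slco2a1 and Ptges varied within groups more than between them, which limits what the values of these genes given above can show. Slco2a1 was at 15.9 FPKM in Control mouse 48, 13.3 in PZH mouse 53, 6.87 and 8.69 in AOM/DSS mice 44 and 52, and 9.67 and 20.6 in PZH + AOM/DSS mice 35 and 36. The other 14 mice lay between 0.611 and 2.27 FPKM. The deposited tables also hold 22252 transcripts that were assembled from the reads and carry no gene name, and these take 12.1 to 14.8% of all FPKM. Of 16430 such transcripts compared after the values were seen, the one that ran most opposite to Slco2a1 had a Pearson r of -0.93 over 20 mice, and the next had -0.77. For the other 9 genes the most opposite transcript had r between -0.94 and -0.76, the strongest being that of Hpgd (-0.936, next -0.924). The unnamed transcript most opposite to Hpgd was at 0 to 0.176 FPKM in the 10 mice without AOM/DSS. It was at 7.43 to 16.2 FPKM in AOM/DSS mice and at 0.566 to 10.9 FPKM in PZH + AOM/DSS mice. The one most opposite to Slco2a1 was at 0 to 0.624 FPKM in the 6 mice with high Slco2a1 and at 6.18 to 23.6 FPKM in the other 14. For Ptges, the most opposite transcript (r = -0.83, next -0.81) was at 0.0107 to 0.548 FPKM in the 7 mice with 3.55 FPKM of Ptges or more and at 1.76 to 4.52 FPKM in the other 13. The files do not pair these transcripts with genes or positions, and their part in the Hpgd, Slco2a1 and Ptges values was not tested.

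**Figure D5:**
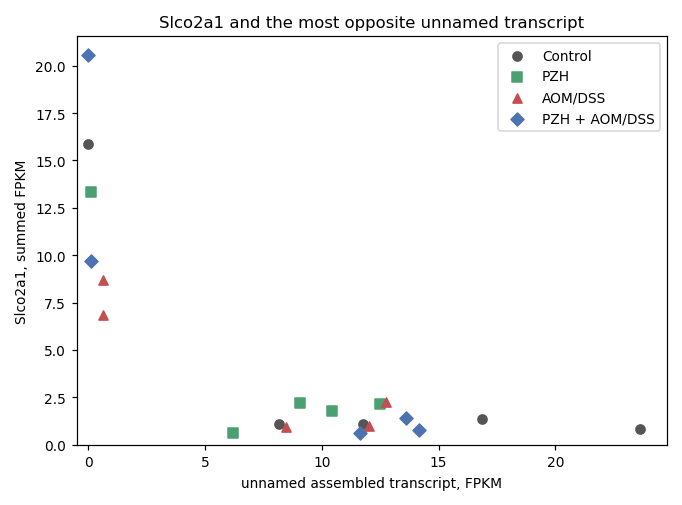
Summed FPKM of Slco2a1 (vertical) and FPKM of the most opposite unnamed assembled transcript (horizontal) in each of 20 mice, with 1 symbol per group. In 6 mice, from all 4 groups, Slco2a1 is at 6.87 FPKM or more and the other transcript at 0.624 or less, and in the other 14 Slco2a1 is at 2.27 or less and the transcript at 6.18 or more.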

How the data were processed

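For each of 20 colon libraries, the deposited table gave FPKM for every transcript and held no counts. Per the study's methods, reads were filtered with NGSQC, aligned to mm10 with HISAT2 and quantified with StringTie, and the authors tested transcripts with DESeq at a fold change above 2. The library kit named does not mark strand, so reads of a gene and of an overlapping antisense gene cannot be told apart. Such genes share 0.768 to 15.3% of the exon bases of 5 of the 10 genes.

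FPKM of 96032 of the 96182 Ensembl transcripts were summed per gene by GENCODE M21 (GRCm38). The 22252 assembled transcripts entered no gene. Depth was estimated from single-transcript genes, where FPKM times length was taken to move in steps of 1 fragment. Since 40.7 to 45.2% of low values lay on whole steps, counts were not recovered and no count test was run. Genes that reached 0.5 FPKM in 5 or more of the compared mice were tested as log2(FPKM + 1) with limma 3.58.1 (trend, R 4.3.3), on the 10 mice of each comparison and without covariates. The script was tested on simulated data. Figures were drawn with matplotlib 3.10.9.

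The 10 genes, the gene lists and the markers were chosen with earlier results of these data known. The rule for named genes took the 10 genes, up to 4 other pathway genes per direction and comparison with an adjusted P under 0.05, by size, the marker genes, and the 3 genes most like Ptgs2 and Hpgd. Promoters came from RefSeq (GRCm38.p6). Alternatives were a pseudocount of 0.1, no filter, at least 1 FPKM in every mouse, median-of-ratios scaling, the study's criteria, the most abundant transcript alone, all 20 mice in 1 model, sample quality weights and leaving out each mouse. Leaving out Control mice 17 and 50 together was added after seeing the data. The labels name no sequencing batch.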

Additional observations from a re-analysis of the deposited data

Results flagged for a closer look

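In 40 sets of 5 mice (10 genes in 4 groups), the highest or lowest mouse stood apart from its group by Dixon's criterion in 5, where chance gives about 2. Ptges in AOM/DSS mouse 23 was at 5.95 FPKM, and the next mouse of its group was at 2.57. Ptges2 was at 8.69 FPKM in PZH mouse 46, the next being 7.31, and at 4.98 FPKM in PZH + AOM/DSS mouse 36, the next being 6.53. Slco2a1 was at 15.9 FPKM in Control mouse 48, the next being 1.35, and at 13.3 FPKM in PZH mouse 53, the next being 2.21. In the Slco2a1 mice the unnamed transcript described above was at 0 and 0.0922 FPKM, and its part in these values was not tested.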

How the results depend on the processing

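In AOM/DSS against Control, 2 of the 10 genes (Ptgs2 and Hpgd) passed the study's cut-offs applied to these limma fits. Ptgis fell just short of the fold cut-off at -0.95 on the FPKM + 1 scale, while its ratio of mean FPKM was 0.429. Without 1 mouse, 3 to 4 genes were called. In PZH + AOM/DSS against Control the count was 0 with a pseudocount of 0.1, with no filter, with the most abundant transcript and without Control mice 17 and 50, and 2 with all 20 mice. Leaving out 1 mouse gave 0 to 1. In PZH + AOM/DSS against PZH it was 0 with a pseudocount of 0.1, no filter, median-of-ratios scaling or the most abundant transcript, 2 with all 20 mice, and 0 to 1 without 1 mouse. In the interaction, 1 gene (Ptgis) passed the same cut-offs applied to the limma fit, and 0 to 1 were called without 1 mouse. No change of scaling moved the median of all genes by over 0.1 on the log2 scale. Calls of Ptgs2, Hpgd and Ptgis in AOM/DSS against Control held in 10 of 10 fits without 1 mouse. The cause of lost or gained calls was not tested.

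Log2 fold changes that turned sign belonged to differences that were not called. Without Control mice 17 and 50 they were Ptges -0.28 and Slco2a1 -0.085 in AOM/DSS against Control, Hpgd 0.055, Slco2a1 -0.20 and Ptger3 0.34 in PZH against Control, and Slco2a1 0.34 and Ptger3 -0.11 in the interaction. With median-of-ratios scaling they were Ptges -0.00639 in AOM/DSS against Control and Ptgs1 0.025 in PZH + AOM/DSS against AOM/DSS. With the most abundant transcript they were Ptges -0.29 in AOM/DSS against Control, Ptger4 0.17 in PZH against Control, Ptger3 -0.020 and Ptger4 -0.022 in PZH + AOM/DSS against AOM/DSS, and Ptger4 -0.19 in the interaction. With quality weights Slco2a1 was -0.14 in PZH + AOM/DSS against AOM/DSS, -0.00255 against Control and -0.0319 against PZH.

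Leaving out 1 mouse turned the sign in these ranges. In AOM/DSS against Control, Ptges ran from -0.15 to 0.29 and Slco2a1 from -0.0054 to 0.92. In PZH against Control, Hpgd ran from -0.069 to 0.095, Ptger3 from -0.51 to 0.065 and Slco2a1 from -0.28 to 0.81. In PZH + AOM/DSS against AOM/DSS, Ptgs1 ran from -0.084 to 0.051, Ptger4 from -0.025 to 0.16 and Slco2a1 from -0.43 to 0.51. Slco2a1 ran from -0.11 to 1.07 in PZH + AOM/DSS against Control. Against PZH, Ptgis ran from -0.057 to 0.24 and Slco2a1 from -0.32 to 0.75. In the interaction, Ptgs1 ran from -0.022 to 0.13 and Slco2a1 from -0.67 to 0.43. Ptges and Ptger2 rest on as few as an estimated 17.3 and 18 fragments in a mouse. With at least 1 FPKM in every mouse, Ptger2 and Slco2a1 were not tested.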
